A study of Mus musculus with 7 samples.

Results

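The cells described here are the leukocytes of 4 libraries of mouse brain tumours, 2 from hosts given a combined blockade of vascular endothelial growth factor (VEGF) and of programmed death ligand 1 (PD-L1), called BP 1 and BP 2, and 2 from hosts given an isotype control antibody, called IgG 1 and IgG 2. Kept barcodes had 1000 or more unique molecular identifiers (UMIs, each standing for 1 captured transcript) and 500 or more genes, and mitochondrial genes took no more than 15% of their UMIs. A kept barcode was taken as a leukocyte when it also held at least 1 UMI of Ptprc, which encodes CD45, the surface phosphatase of nearly all white blood cells. This gave 7078 Ptprc-positive barcodes of the 30811 kept in the 4 libraries, and of 51795 kept in all 7 libraries of the series.

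The tumours grew in the brains of C57BL/6 mice, aged 7 to 10 weeks and of wild-type genotype, after implantation of NSCG-mCherry, a cell line labelled EGFRvIII+ and Arf/Ink4a-/-. BP hosts received 5 mg/kg of B20, an antibody against VEGF, together with 10 mg/kg of an anti-PD-L1 antibody, and IgG hosts received 10 mg/kg of an IgG2b isotype antibody in saline. Both were injected into the abdomen every 3 days from day 6 to 7 after implantation, and whole tumours were taken at about day 14 after 3 rounds. Each library pooled at least 2 mice and aimed at 6000 cells, so a library is 1 replicate and the mice within it cannot be told apart. All groups share the cell line and the strain, and the sex of the hosts is not given. Some controls of the series also received an oral diluent, and the labels do not say which of the 2 IgG libraries, if either, did. In the labels IgG 1 and BP 2 carry consecutive library numbers, BP 1 an earlier and IgG 2 a later one, and whether any were prepared together is not given. An untreated library of the same model (UT, 1 library) is given beside the results and entered no main test.

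VEGF drives the growth of leaky vessels in glioma and restrains the entry and priming of lymphocytes, and PD-L1, encoded by Cd274, is the ligand that holds back T cells bearing the receptor PD-1, encoded by Pdcd1. Interferon-gamma, made by T cells and natural killer (NK) cells, acts on myeloid cells, which then make guanylate-binding proteins, the chemokines CXCL9 and CXCL10, antigen-presenting molecules and PD-L1 itself. The brain's resident macrophages, the microglia, differ from recruited cells, among which Ly6c2-high monocytes enter from blood and C1q-expressing macrophages arise in the tissue.

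The 4 libraries held 75444603 to 186793886 UMIs in all and 6009 to 10539 kept barcodes, with a median of 11649 to 17876.5 UMIs per kept barcode. BP 1 had the most UMIs in total, IgG 2 the most per kept barcode, and BP 1 held 5156 of the Ptprc-positive barcodes, against 788 in BP 2, 302 in IgG 1 and 832 in IgG 2. Between 10 and 25 barcodes were shared by any pair of the 4 libraries, at most 0.384% of the smaller one. Ptprc-positive barcodes with tumour RNA (at least 2 UMIs of a tumour gene list) made up 16.9% in IgG 1, 23.6% in IgG 2, 32.7% in BP 1 and 11.3% in BP 2. Barcodes with at least 5 tumour-list UMIs that passed no leukocyte gate (described below) were taken as mostly tumour cells. They held a Ptprc UMI in 0.347%, 0.346%, 10.5% and 0.900% of cases in the same order. Barcodes with tumour RNA that passed a gate are not in these shares. BP 1 stood apart on this measure, with more barcodes that carried tumour and leukocyte RNA together, and the counts of called genes and the values of some genes are also given without the tumour-RNA barcodes.

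Leukocytes took a larger share of the tumour in both BP libraries than in both IgG libraries. The Ptprc-positive share of kept barcodes was 4.83% in IgG 1, 10.4% in IgG 2, 48.9% in BP 1 and 13.1% in BP 2, a difference of means of 23.4 percentage points (IgG 7.61% ± 3.94, BP 31.02% ± 25.3, SD, n = 2 libraries each). The groups did not overlap, and BP 1 alone accounts for most of the distance. The labels tie no library to single animals, so p-values here measure the spread between pooled libraries. An exact two-sided permutation test of 2 libraries against 2 cannot fall below p = 0.333, which is the value for this share and for every class share below whose groups did not overlap. Without tumour-RNA barcodes the shares were 4.01%, 7.94%, 32.9% and 11.6%. Leaving out microglia widened the gap in proportion, with 3.07%, 2.41%, 45.2% and 10.98% of kept barcodes. The untreated library held 22.2%, above BP 2.

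Each leukocyte was placed in a class by raw UMIs of marker genes. T cells held at least 2 UMIs of the T cell receptor and CD3 genes, and were divided into CD8 (Cd8a or Cd8b1), CD4 (Cd4) and Foxp3, the lineage factor of regulatory T cells, with other T cells left that held none of these genes or a mix of them. NK cells and B cells held at least 2 UMIs of their own genes. Microglia held at least 3 UMIs of the complement genes C1qa, C1qb and C1qc and at least 2 of P2ry12, Tmem119, Gpr34 and Sall1, C1q macrophages held the complement genes with at most 1 UMI of those microglial genes, and Ly6c2 monocytes held at least 2 Ly6c2 UMIs with low C1q. The remaining barcodes fell into neutrophil, dendritic, plasmacytoid dendritic, mast or basophil, other myeloid, mixed-lineage and ungated classes.

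**Figure D1:**
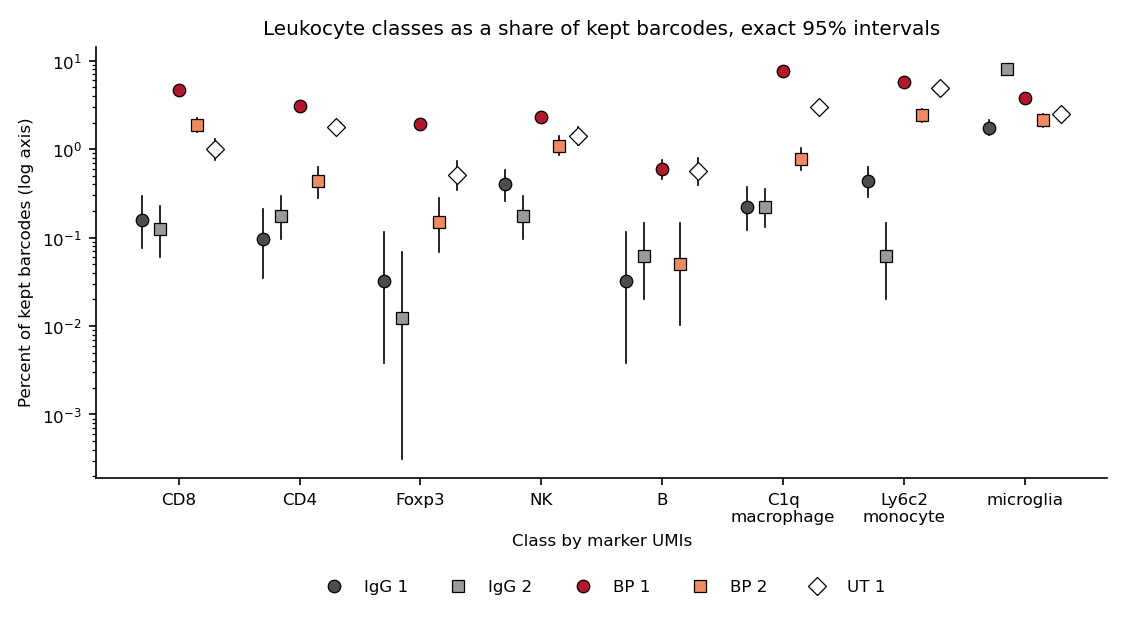
Each leukocyte class as a percent of kept barcodes on a log axis, with exact 95% binomial intervals (counting error only), in 2 IgG, 2 BP and the untreated (UT) library. BP 1 and BP 2 lie above both IgG libraries for CD8, CD4, Foxp3, NK, C1q macrophage and Ly6c2 monocyte, and overlap them for B and microglia.

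CD8 T cells, the cytotoxic arm of the T cell response, numbered 10 in IgG 1, 10 in IgG 2, 499 in BP 1 and 113 in BP 2. They made up 3.31%, 1.20%, 9.68% and 14.3% of the Ptprc-positive barcodes, a difference of 9.75 percentage points. As a share of kept barcodes they stood at 0.160%, 0.125%, 4.73% and 1.88%, with the untreated library at 0.995%. This class was higher in both BP libraries under every denominator used, including all leukocytes but microglia (5.21%, 5.18%, 10.5% and 17.1%) and T cells (21.3%, 17.2%, 32.2% and 45.6%).

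CD4 T cells numbered 6, 14, 324 and 26 in the order IgG 1, IgG 2, BP 1 and BP 2, or 1.99%, 1.68%, 6.28% and 3.30% of leukocytes, and the untreated library held 8.01%. Foxp3 cells numbered 2, 1, 204 and 9, or 0.662%, 0.120%, 3.96% and 1.14%, with 2.32% in the untreated library. Both were higher in the BP libraries as a share of leukocytes and of kept barcodes. Among T cells the groups overlapped for each, with Foxp3 cells at 4.26%, 1.72%, 13.2% and 3.63%, and CD4 cells at 12.8%, 24.1%, 20.9% and 10.5%. Other T cells numbered 29, 33, 522 and 100, the largest T cell class in every library but BP 2. They made up 61.7%, 56.9%, 33.7% and 40.3% of T cells, so the CD8, CD4 and Foxp3 shares of T cells leave out a large remainder that was bigger in the IgG libraries.

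NK cells numbered 25, 14, 244 and 66. Their share of leukocytes overlapped between the groups (8.28%, 1.68%, 4.73% and 8.38%), whereas their share of kept barcodes did not (0.400%, 0.175%, 2.32% and 1.10%). Without microglia in the denominator the difference in NK share turned to -2.57 percentage points. Without IgG 2 it was -1.72 and without BP 2 -0.248, so its sign rests on single libraries. B cells were few, 2, 5, 63 and 3, and their shares overlapped between the groups on every denominator.

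Among myeloid cells, Ly6c2 monocytes numbered 27, 5, 612 and 145 and made up 8.94%, 0.601%, 11.9% and 18.4% of leukocytes, with 22.3% in the untreated library. C1q macrophages numbered 14, 18, 816 and 47, or 4.64%, 2.16%, 15.8% and 5.96%. The groups did not overlap for either class, but after each barcode was thinned to 1000 UMIs the difference in C1q macrophage share reversed, from 7.496 to -3.74 percentage points. Median depth in that class was 12727, 14705, 11408 and 6740 UMIs in the same order, and the share is thus not stable against depth.

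Microglia were the largest class of leukocytes in both IgG libraries and a smaller share in both BP libraries. They made up 36.4%, 76.8%, 7.68% and 16.2% of leukocytes, a difference of -44.7 percentage points, with 11.4% in the untreated library. As a share of kept barcodes they overlapped between the groups (1.76%, 7.98%, 3.76% and 2.13%). The microglial share was thus lower in both BP libraries among leukocytes and not among all kept barcodes.

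**Figure D2:**
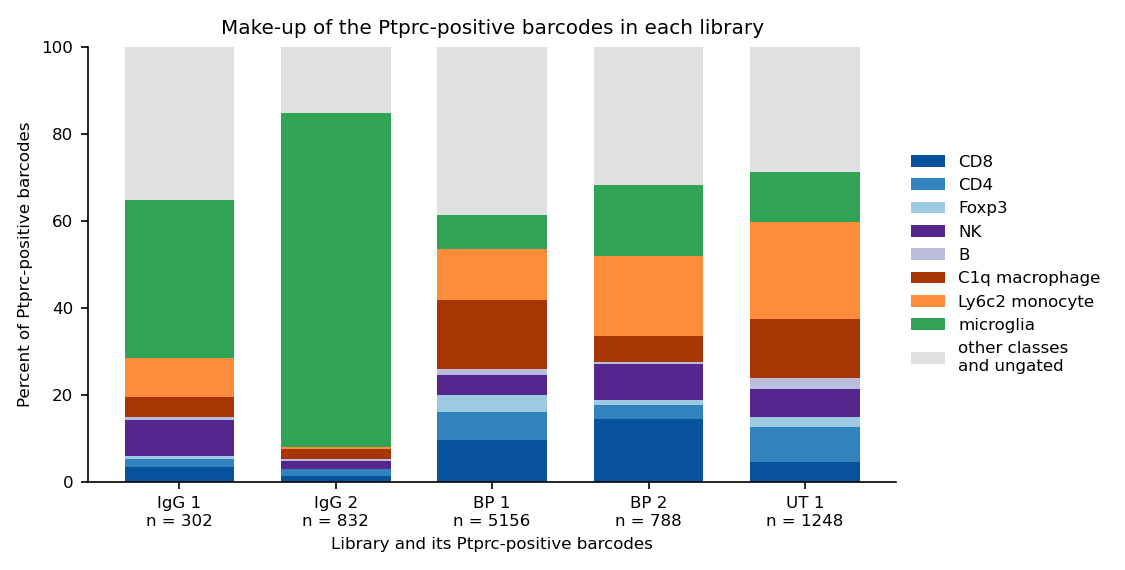
Make-up of the Ptprc-positive barcodes in each library as stacked percentages, with the number of barcodes under each bar. Microglia fill 36.4% and 76.8% of the IgG bars, and 7.68% and 16.2% of the BP bars.

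A fit of the cell numbers with edgeR's quasi-likelihood test over 16 classes, which uses the Ptprc-positive total of each library as the offset, called none after Benjamini-Hochberg adjustment. The log2 differences were 3.05 ± 1.26 (SE) for Foxp3, 2.47 ± 1.05 for CD8 and -2.25 ± 0.99 for microglia, each with an edgeR adjusted p of 0.160, and these 3 classes had an unadjusted p under 0.05. No alternative fit of the cell numbers called a class.

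The class names were checked with genes that the gates did not use. The NK class held 5206, 3235, 5592 and 4899 CPM (UMIs summed over the cells of a class, scaled to 1000000 UMIs) of 6 other NK genes, and the CD8 class held 1410, 1146, 2717 and 2266 CPM of 6 other T cell genes. The CD4 class differed between groups in its own markers: Cd40lg, Tnfrsf4, Icos and Tnfsf8 summed to 39.9 CPM in IgG 1, 267 in IgG 2, 1542 in BP 1 and 1286 in BP 2. In that class tumour-RNA barcodes held 78.8% and 79.2% of the UMIs in the IgG libraries against 30.9% and 11.5% in the BP libraries. The microglial class of BP 1 also stood apart, with 2525 CPM of 6 other microglial genes against 5399, 8036 and 6240 in IgG 1, IgG 2 and BP 2. It held 1086 CPM of 6 monocyte genes against 46.2, 18.3 and 131.

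Over all Ptprc-positive barcodes taken as 1 sum per library, edgeR tested 14603 genes and called none, with 1408 at an unadjusted p under 0.05 and a smallest adjusted p of 0.179. DESeq2 called 411, and edgeR called 629 without IgG 1 and 61 without BP 2. These sums mix classes whose shares differ, so fewer cells of a type and less RNA per cell cannot be told apart in them. In both BP libraries above both IgG libraries stood 24 of 25 interferon-gamma response genes tested, 11 of 11 MHC class I genes and 7 of 8 MHC class II genes, against 19.4% of all genes tested. Only genes that passed a filter on low counts are in these numbers, and a gene can pass through its level in 1 group alone. All 12 homeostatic microglia genes tested lay below, against 15% of all genes, beside the microglial shares given above.

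The class II gene H2-Ab1 stood at 206, 108, 2410.1 and 1279.5 CPM in IgG 1, IgG 2, BP 1 and BP 2, a log2 difference of 3.47 that did not pass (edgeR adjusted p = 0.332). Cx3cr1, the microglial fractalkine receptor gene, stood at 720, 1606, 93.8 and 348 CPM. Stab1, a scavenger receptor of tissue macrophages and the first by p of the named genes lower in BP, stood at 78.8, 68.3, 26.0 and 18.6 CPM (-1.78 ± 0.26, edgeR adjusted p = 0.332). For each of these 3 genes the BP and IgG libraries did not overlap.

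Of the 3 myeloid classes fitted, Ly6c2 monocytes were the one in which edgeR called genes. In both BP libraries they held more RNA of interferon-gamma-induced genes, led by Cxcl9 and guanylate-binding proteins, and more Cd274. This fit was added after the cell numbers were seen, since IgG 2 held only 5 of these cells and 41747 UMIs, so that 0 counts there allows up to 71.9 CPM. The promoters of 3 genes that rose in this class are shown with that of Cxcl9, since interferon-gamma acts on such genes through the gamma-activated site (GAS, searched as TTCNNNGAA) and the interferon-stimulated response element (ISRE, searched as GAAA, any 2 bases, then GAAA). Each sequence runs 5′ to 3′ on the gene's own strand from 250 bases before the start to 50 after it (RefSeq, GRCm38.p6), with matches on either strand in capitals.
Gbp2 (chr3:142620413-142620712, plus strand): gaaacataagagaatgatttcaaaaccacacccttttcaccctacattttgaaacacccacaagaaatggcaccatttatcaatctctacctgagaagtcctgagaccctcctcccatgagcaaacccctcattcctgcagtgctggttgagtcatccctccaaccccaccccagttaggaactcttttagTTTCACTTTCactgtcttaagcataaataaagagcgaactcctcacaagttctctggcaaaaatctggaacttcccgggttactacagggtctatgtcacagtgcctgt
Gbp5 (chr3:142496684-142496983, plus strand): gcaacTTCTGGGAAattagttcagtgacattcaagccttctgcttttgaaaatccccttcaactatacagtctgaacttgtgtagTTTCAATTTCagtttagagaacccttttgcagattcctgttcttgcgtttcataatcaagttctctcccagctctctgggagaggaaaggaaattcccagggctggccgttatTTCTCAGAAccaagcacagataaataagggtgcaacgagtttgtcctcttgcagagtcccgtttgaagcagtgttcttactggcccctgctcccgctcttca
Socs1 (chr16:10785487-10785786, minus strand): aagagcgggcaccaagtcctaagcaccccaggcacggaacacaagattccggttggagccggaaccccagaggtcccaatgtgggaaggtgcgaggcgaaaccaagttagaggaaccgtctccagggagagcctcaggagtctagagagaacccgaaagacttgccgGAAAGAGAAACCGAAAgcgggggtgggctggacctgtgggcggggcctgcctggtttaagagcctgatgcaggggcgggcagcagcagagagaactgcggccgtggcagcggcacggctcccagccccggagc
Cxcl9 (chr5:92328030-92328329, minus strand): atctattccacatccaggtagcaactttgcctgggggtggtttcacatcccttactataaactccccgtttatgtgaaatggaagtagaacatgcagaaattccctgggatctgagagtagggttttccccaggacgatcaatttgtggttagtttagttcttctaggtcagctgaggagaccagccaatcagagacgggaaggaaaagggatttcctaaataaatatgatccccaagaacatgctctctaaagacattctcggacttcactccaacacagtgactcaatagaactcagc
Gbp2 held 1 ISRE match beginning at position -59 from the start, Gbp5 held GAS matches at -245 and -52 and an ISRE match at -165, and Socs1 held overlapping ISRE matches at -83 and -77. Cxcl9 held no match in this window. Of the 8 interferon-gamma list genes that rose in this class, a match was found only for Gbp2, Gbp5 and Socs1, the 3 shown. None was found for Gbp4, Ly6a, Iigp1 and Cd274, and whether each of these has a RefSeq promoter under its symbol is not given here. Of 26 genes on the interferon-gamma response list, 19 matched a RefSeq promoter by symbol. In the first entry of each, 9 (47.4%) held a GAS and 11 (57.9%) an ISRE match, against 8.47% and 3.49% of the first entries of all 27025 genes in the table.

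In this class edgeR tested 7006 genes and called 37 (0.528%), of which 31 rose and 6 fell (0.442% and 0.0856%). Of 24 interferon-gamma response genes tested, 8 rose, against those 0.442% of all genes, and 18 lay above in both BP libraries, against 20.1%. Their median log2 difference was 1.26, and that of all genes in the class was 0.107. Of the 8 that rose, Cxcl9, Gbp2, Gbp4, Gbp5, Socs1 and Cd274 held no UMI in the IgG library with fewer Ly6c2 monocytes. These genes needed BP to pass the filter on low counts, so the list counts partly restate that filter.

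Cxcl9 encodes a chemokine that draws CXCR3-bearing T and NK cells (chromosome 5, 92321347 to 92328079, GRCm38). It stood at 24.4 CPM in IgG 1, 0 in IgG 2, 1018 in BP 1 and 1040 in BP 2, from 4, 0, 5306 and 1010 UMIs. Both BP libraries were far above both IgG libraries (log2 difference 5.78 ± 0.78, edgeR adjusted p = 7.27e-08). The untreated library held 1361 CPM.

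Cd274, the PD-L1 gene and the target of the anti-PD-L1 antibody, stood at 61.1, 0, 620 and 178 CPM (3.12 ± 0.68, edgeR adjusted p = 0.00788), and at 438 CPM in the untreated library. Gbp2, a guanylate-binding protein that attacks the vacuoles of intracellular pathogens, stood at 147, 0, 1087 and 339 CPM (2.82 ± 0.63, edgeR adjusted p = 0.00949). Iigp1, an immunity-related GTPase, stood at 214, 24.0, 1512 and 571 CPM (2.80 ± 0.61, edgeR adjusted p = 0.00788). In each of these the groups did not overlap, and BP 1 was above BP 2.

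Gbp4, Gbp5, Socs1 (a feedback inhibitor of cytokine signalling) and Ly6a (the Sca-1 surface antigen) rose as well, with log2 differences of 4.05, 2.99, 2.73 and 2.41. The gene with the smallest p was Gm15056 at 6.11, 0, 1873.6 and 192 CPM (7.64 ± 1.01, edgeR adjusted p = 5.80e-08). Slc7a2, a transporter of arginine, stood at 12.2, 0, 678 and 38.1 CPM (5.14 ± 0.94, edgeR adjusted p = 0.000465). Gm4951, an interferon-induced GTPase gene, stood at 12.2, 0, 469 and 149 CPM (4.96 ± 0.88, edgeR adjusted p = 0.000275). Among the 4 libraries compared Gm15056, Slc7a2 and Gm4951 were highest in BP 1, and for Slc7a2 the level in BP 2 was closer to IgG 1 than to BP 1. The untreated library held 4235 CPM of Gm15056 and 3630 CPM of Ly6a, above both BP libraries, and 56.5 CPM of Slc7a2 and 240 CPM of Gm4951. With it pooled with IgG the differences of Gm15056 and Ly6a turned to -0.88 and -0.41.

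Among the genes that fell, Colec12, a scavenger receptor, stood at 79.4, 263, 16.9 and 27.8 CPM (-2.71 ± 0.68, edgeR adjusted p = 0.0320). Arsb, a lysosomal sulfatase gene, stood at 208, 287, 49.7 and 36.0 CPM (-2.46 ± 0.59, edgeR adjusted p = 0.0194). Both were lower in both BP libraries, where the estimated share of free RNA was 11.6% and 8.72% for Colec12 and 21.7% and 42.6% for Arsb.

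Of 11 suppressive and repair genes tested, edgeR called Chil3 and Arg1 higher and Gpnmb lower, against 0.442% and 0.0856% of all genes. Chil3, a chitinase-like protein gene, stood at 263, 192, 2026 and 393 CPM (2.32 ± 0.60, edgeR adjusted p = 0.0364). Arg1, which encodes the arginine-degrading enzyme arginase, stood at 55.0, 0, 1584 and 8.23 CPM, so its call rests on BP 1 alone and the groups overlapped. Gpnmb, a gene of lipid-laden macrophages, stood at 354.2, 0, 13.8 and 59.7 CPM, also overlapping, and its high value is IgG 1 alone.

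Of 17 type I interferon response genes tested in this class none passed, 1 lay above and 2 below in both BP libraries (20.1% and 12.1% of all genes did), and their median log2 difference was -0.25. Isg15, a ubiquitin-like modifier induced by type I interferon, stood at 3133, 1318, 944 and 2452 CPM, overlapping between the groups. H2-Ab1 stood at 476, 1533, 4590 and 2285 CPM (1.86 ± 0.61, edgeR adjusted p = 0.285).

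Without tumour-RNA barcodes edgeR called 41 genes in the Ly6c2 class, and Cxcl9 stood at 26.3, 0, 1120 and 1220 CPM. The count was 8 without IgG 1, 22 without IgG 2, 8 without BP 1 and 110 without BP 2, and no gene was called after subtraction of free RNA or with the untreated library pooled with IgG. Scrublet doublets out left 5 calls, at least 2 Ptprc UMIs left 1 and DESeq2 called 9.

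**Figure D3:**
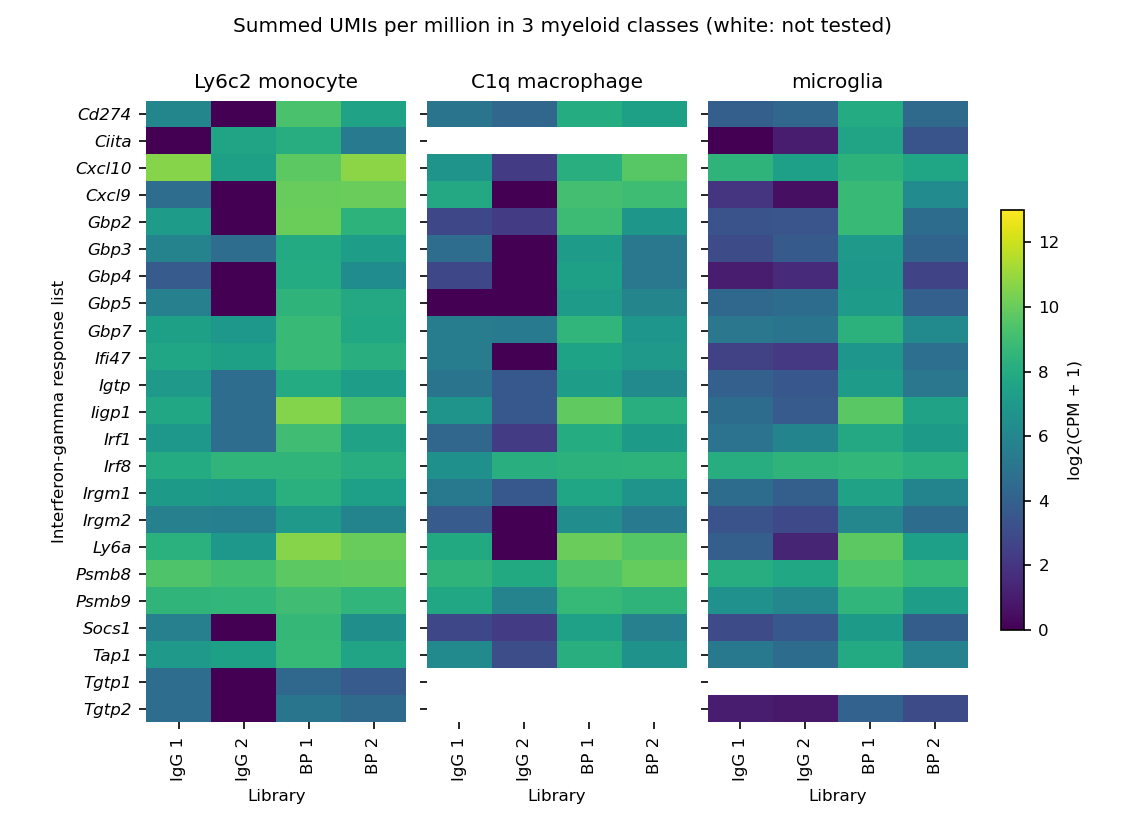
Level of each tested interferon-gamma response gene, as log2(CPM + 1) of the UMIs summed over the cells of a class, in 3 myeloid classes and 4 libraries, with white for genes not tested and 1 gene of the list not drawn. In the C1q macrophage panel every gene drawn as tested is brighter in both BP columns, and in the Ly6c2 panel most are.

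In C1q macrophages the MHC class II genes lay far apart between the groups. H2-Aa, the alpha chain of the class II molecule I-A, stood at 73.3 CPM in IgG 1, 11.2 in IgG 2, 4570 in BP 1 and 2888 in BP 2, and at 6323 in the untreated library. Cd74, the invariant chain that accompanies class II molecules, stood at 458, 104, 10383 and 6535 CPM, and H2-Ab1 at 238, 22.3, 6023 and 4291 CPM. The BP libraries were far above the IgG libraries for all 3, with log2 differences of 6.53 ± 0.87, 4.91 ± 0.79 and 5.36 ± 0.96, but none passed (edgeR adjusted p = 0.0923, 0.0923 and 0.0967).

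In this class edgeR tested 5263 genes and called none, with 424 at an unadjusted p under 0.05. DESeq2 called 50, and edgeR called 78 without IgG 1, 39 without IgG 2, 186 without BP 1 and 206 without BP 2. All 6 class II genes tested lay above in both BP libraries, against 21.4% of all genes, with a median log2 difference of 5.13, or 4.09 with H2-Eb1, at 0 in both IgG libraries, put at its lower bound. All 21 interferon-gamma response genes and all 11 MHC class I genes tested also lay above, with medians of 3.08 and 2.13. H2-Eb1 and, on the interferon-gamma list, Gbp5 were at 0 in both IgG libraries and passed the filter on low counts through BP alone. Others were low in an IgG library or in both and also needed BP to pass. Among them were H2-Aa and H2-Ab1, and on the interferon-gamma list Irf1, Cd274, Cxcl9, Cxcl10 and Ly6a. The class II and interferon-gamma counts thus partly restate that filter.

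Irf1, a transcription factor induced by interferon-gamma, stood at 18.3, 3.72, 267 and 134 CPM in C1q macrophages (4.29 ± 0.72, edgeR adjusted p = 0.0967). Gbp5 stood at 0, 0, 143 and 58.8 CPM, at least 6.85-fold higher in BP than a floor of 3 counts in each IgG library, 14.7 CPM on average. Cd274 stood at 30.5, 18.6, 260 and 165 CPM (3.08 ± 0.54, edgeR adjusted p = 0.0967). The groups did not overlap for any of these. Cxcl9, at 226, 0, 555 and 490 CPM, showed a smaller difference relative to its spread (2.31 ± 1.16, edgeR adjusted p = 0.716). Without tumour-RNA barcodes it stood at 657, 0, 637 and 513 CPM, and the groups overlapped. Cxcl10 stood at 104, 3.72, 297 and 775 CPM (3.50 ± 1.04, edgeR adjusted p = 0.306). Without tumour-RNA barcodes the groups overlapped for Cxcl10 too, at 231, 0, 221 and 812 CPM.

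Among genes lower in BP, Adamts1, a secreted protease gene, stood at 104, 216, 6.82 and 0 CPM (-5.07 ± 0.76, edgeR adjusted p = 0.0923) and Cacna1a, a calcium channel gene, at 195, 339, 11.1 and 39.2 CPM (-3.77 ± 0.77, edgeR adjusted p = 0.122). F13a1, the coagulation factor gene found in resident macrophages of brain borders, stood at 128.2, 119, 14.0 and 25.2 CPM (-2.90 ± 0.56, edgeR adjusted p = 0.117). Both BP libraries were below both IgG libraries in each.

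The make-up of the C1q gate also differed between libraries. Genes of monocytes not used in the gate summed to 501, 11.2, 2753 and 425 CPM, and 6 microglial genes to 1062, 2930, 428 and 1296 CPM. Tumour-RNA barcodes held 65.6%, 54.2%, 53.2% and 4.52% of the UMIs. Without them the class II list summed to 2325, 357, 30409 and 14715 CPM, with both BP libraries above. Whether the mixture of cells in the gate has a part in the difference was not tested.

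In microglia class II levels were also above both IgG libraries in both BP libraries without passing the test, with BP 1 far above BP 2. H2-Ab1 stood at 54.2, 29.3, 5747 and 687 CPM (6.30 ± 1.13, edgeR adjusted p = 0.756) and Cd74 at 163, 122, 12453 and 1644 CPM (5.63 ± 1.01, edgeR adjusted p = 0.756), and the untreated library held 6567 and 15582 CPM of them, above both BP libraries. No gene of 12809 tested was called by edgeR, with 596 at an unadjusted p under 0.05. DESeq2 called 51, and edgeR called 951 without BP 2 and 15 without BP 1. Of 8 class II genes tested, 7 lay above in both BP libraries, and of 23 interferon-gamma response genes 20 did, against 16% of all genes. In the IgG libraries 1 class II gene was at 0 in both, and Cxcl9 held 3 and 4 UMIs. These needed BP to pass the filter on low counts, so both counts partly restate that filter.

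Acod1, which encodes the enzyme that makes itaconate, had the smallest p in microglia at 6.02, 4.79, 74.7 and 86.2 CPM (3.95 ± 0.34, edgeR adjusted p = 0.322). The untreated library held 307 CPM, above both BP libraries, and with it pooled with IgG the log2 difference turned to -0.70. Cxcl9 stood at 3.01, 0.436, 454 and 76.8 CPM, with 1232 CPM in the untreated library. With that library pooled with IgG its log2 difference turned to -0.95. Cxcl10 overlapped between the groups, at 348, 159, 336 and 207 CPM (0.11 ± 0.46, edgeR adjusted p = 0.998). Lpl, the lipoprotein lipase gene, stood lower in both BP libraries, at 102, 207, 20.8 and 25.6 CPM (-2.79 ± 0.43, edgeR adjusted p = 0.756), and so did Gas6, a ligand of phagocytic receptors, at 118, 69.4, 29.3 and 29.6 CPM. Of 12 homeostatic microglia genes tested 1 lay below in both BP libraries, against 15% of all genes.

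As given above, the microglial gate of BP 1 held 1086 CPM of monocyte genes. Its median depth was 17093.5 UMIs against 5144.5, 8524 and 3540.5 in IgG 1, IgG 2 and BP 2, and dissociation stress genes summed to 1743 CPM against 5421, 5149 and 11439. The part of these in the class II levels was not tested. The class II list summed to 359, 305 and 2994 CPM in IgG 1, IgG 2 and BP 2, beside the 46.2, 18.3 and 131 CPM of monocyte genes given above.

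**Figure D4:**
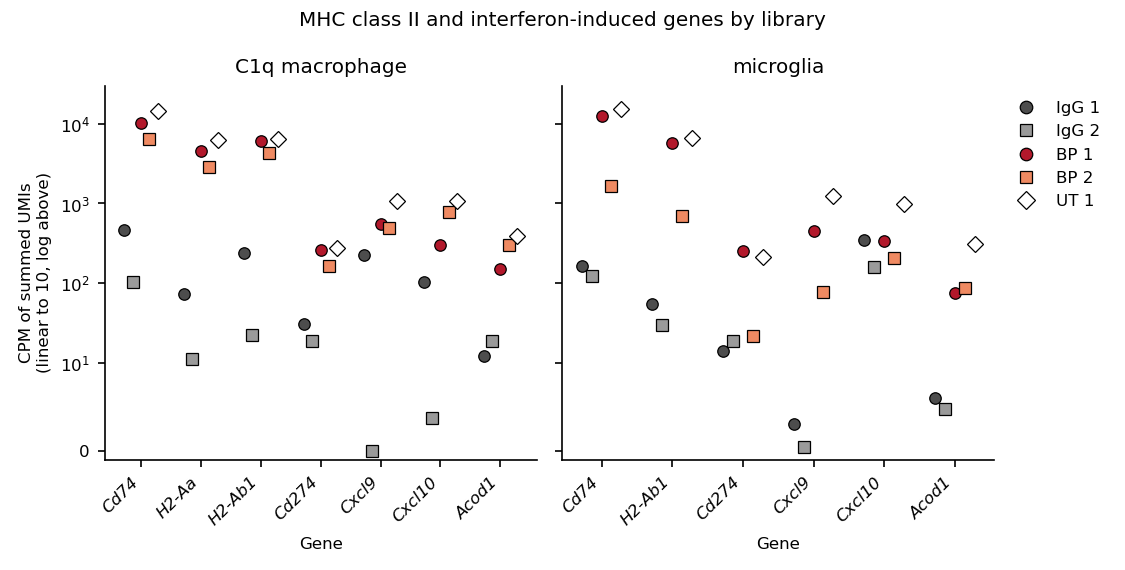
Level of class II, ligand and chemokine genes in CPM (linear to 10, logarithmic above) in C1q macrophages and microglia, 1 point per library. H2-Ab1 in C1q macrophages lies at 6023 and 4291 CPM in BP against 238 and 22.3 in IgG, and in microglia at 5747 and 687 against 54.2 and 29.3.

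CD8 T cells of the BP libraries carried more RNA of some cytotoxic effector genes, among them Gzmb, Prf1 and Ifng, and of receptor genes such as Pdcd1, Ctla4 and Tnfrsf9. In this class edgeR tested 5252 genes and called 81, of which 52 rose and 29 fell, or 1.54% of those tested. The IgG libraries held 10 cells each, with 48937 UMIs in IgG 1 and 85525 in IgG 2. At this depth 3 counts in each IgG library equal 48.2 CPM on average, and a gene at 0 in both can only be given a lower bound against that floor. Tumour-RNA barcodes, 1 in each IgG library, held 36.0% of the class UMIs in IgG 1 and 47.1% in IgG 2. In BP 1 and BP 2 such barcodes held 24.9% and 18.6%.

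Gzmb, the granzyme B gene of killer cells (chromosome 14, 56258838 to 56262260, GRCm38), stood at 143 CPM in IgG 1, 210 in IgG 2, 1831 in BP 1 and 1247 in BP 2. Both BP libraries were above both IgG libraries (3.01 ± 0.47, edgeR adjusted p = 0.000225), and the untreated library held 3165 CPM. Prf1, the perforin gene, stood at 40.9, 23.4, 228 and 177 CPM (2.69 ± 0.68, edgeR adjusted p = 0.0284). Ifng, the interferon-gamma gene, stood at 20.4, 128.6, 380 and 446 CPM (2.24 ± 0.55, edgeR adjusted p = 0.0264).

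Gzma, the granzyme A gene, was at 0 in both IgG libraries and at 225 and 86.7 CPM in BP, at least 3.23-fold higher. Of 12 cytotoxic effector genes tested 4 rose, the ones named here, against 0.99% of all genes. Of these, Gzma, Prf1 and Ifng were low in an IgG library or in both and needed BP to pass the filter on low counts. The count thus partly restates that filter. Xcl1, a chemokine gene for cross-presenting dendritic cells, is on the same list and fell, at 61.3, 1871, 91.5 and 222 CPM. In the CD8 class the groups overlapped for Xcl1, its high value is IgG 2 alone, and without IgG 2 its difference turned to 1.53. Over all T cells Xcl1 stood at 640, 398, 72.9 and 237 CPM, lower in both BP libraries without passing (-1.68 ± 0.61, edgeR adjusted p = 0.299).

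Of 9 inhibitory receptor and exhaustion genes tested 5 rose, against 0.99% of all genes, namely Pdcd1, Ctla4, Havcr2, Tnfrsf9 and Entpd1. All 5 were low in IgG and passed the filter on low counts through BP, so this count partly restates that filter. Pdcd1, the gene of PD-1, stood at 0, 11.7, 166 and 82.9 CPM (4.004 ± 1.03, edgeR adjusted p = 0.0311), and at 330 CPM in the untreated library. With that library pooled with IgG its log2 difference turned to -0.42. Ctla4, the checkpoint receptor gene, stood at 20.4, 0, 202 and 164 CPM (4.53 ± 0.95, edgeR adjusted p = 0.00817). Havcr2, the TIM-3 gene, stood at 20.4, 0, 156 and 88.5 CPM (3.95 ± 1.04, edgeR adjusted p = 0.0366). The IgG values of these 3 genes come from 1 UMI each in 1 library, and both BP libraries were above them.

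Tnfrsf9, the gene of the costimulatory receptor 4-1BB, stood at 20.4, 23.4, 333 and 135.6 CPM (3.32 ± 0.74, edgeR adjusted p = 0.0134). Entpd1, which encodes the ATP-degrading enzyme CD39, stood at 40.9, 0, 225 and 132 CPM (3.48 ± 0.85, edgeR adjusted p = 0.0235). Il2ra, the interleukin-2 receptor alpha chain, stood at 0, 35.1, 277 and 162 CPM (3.25 ± 0.74, edgeR adjusted p = 0.0148). None of these overlapped between the groups.

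Of the genes at 0 in both IgG libraries, Alcam, an adhesion molecule gene, stood at 176 and 98.0 CPM in BP, at least 2.84-fold higher. Ccl1, a chemokine gene that acts on CCR8, stood at 59.1 and 198 CPM, on average at least 2.67-fold higher. Its level in BP 1 lay under the floor of 3 counts in IgG 1, 61.3 CPM, so this bound rests on BP 2. Ctla2b was at least 2.04-fold higher, and did not pass without tumour-RNA barcodes (edgeR adjusted p = 0.0871). Ly6a, at 61.3, 81.8, 815 and 565 CPM, was the one interferon-gamma response gene of 19 tested that passed (3.16 ± 0.54, edgeR adjusted p = 0.000646), against 0.99% of all genes. Of these 19, 14 lay above in both BP libraries, against 26.4% of all genes, with a median log2 difference of 1.13. Ube2c, a gene of mitotic exit, rose too, at 20.4, 0, 160 and 154 CPM, and needed BP to pass the filter on low counts. It was the only one of 14 cell cycle genes tested that passed, against 0.99% of all genes. Of these 14, 9 lay above in both BP libraries, against 26.4% of all genes. Their median log2 difference was 1.25, and the median of all genes in the class was 0.063.

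Among the genes that fell, Hsp90aa1, a heat-shock chaperone gene, stood at 1471, 1345, 519 and 490 CPM (-1.54 ± 0.40, edgeR adjusted p = 0.0366). Of 9 naive and recirculation genes none passed, 1 lay above and 4 below in both BP libraries (26.4% and 20.3% of all genes did). Il7r, the interleukin-7 receptor gene of resting T cells, stood at 143, 175, 106 and 107 CPM (-0.66 ± 0.50, edgeR adjusted p = 0.577). Of 12 type I interferon response genes none passed either.

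Without tumour-RNA barcodes edgeR called 34 genes in CD8 cells, without Scrublet doublets 32, with the replicate block 7, without IgG 2 10, without BP 2 122, and with free RNA subtracted or the untreated library pooled with IgG none. Gzmb passed in each fit that left out 1 library, with log2 differences of 2.84 to 3.59, and without tumour-RNA barcodes at 2.33 (edgeR adjusted p = 0.00272), while Pdcd1 did not pass without tumour-RNA barcodes (3.31, edgeR adjusted p = 0.190).

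**Figure D5:**
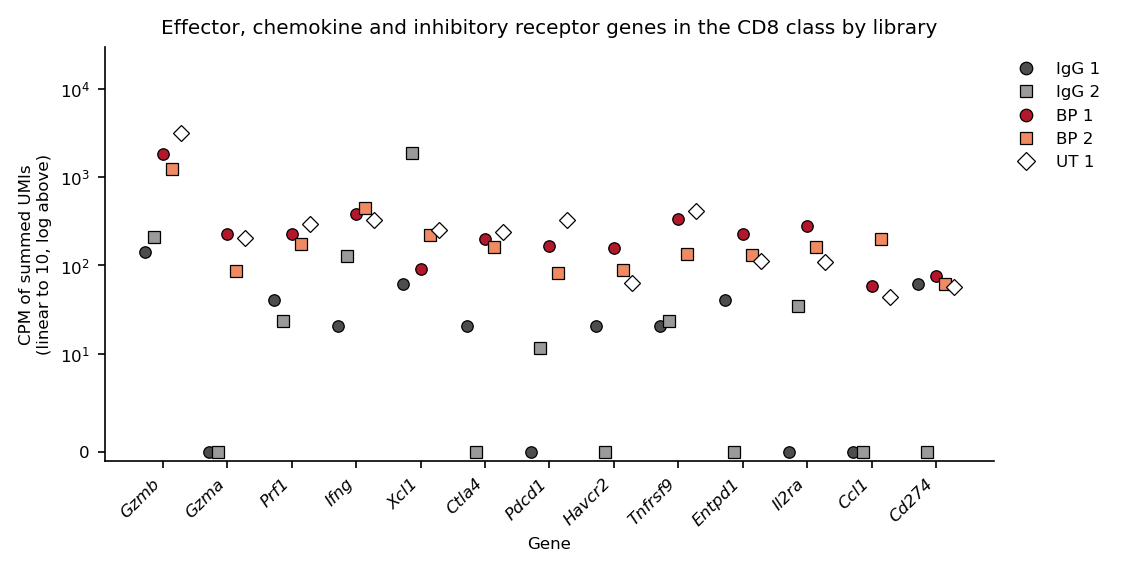
Level of effector, chemokine and receptor genes in the CD8 class in CPM (linear to 10, logarithmic above), 1 point per library. For each gene but Xcl1 both BP points lie above both IgG points, and Cd274 differs least, at 76.2 and 62.2 CPM in BP against 61.3 and 0.

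CD4 T cells were also fitted as an addition, with 6 cells in IgG 1 and 14 in IgG 2. Of 2615 genes tested edgeR called 174 (6.65%), of which 45 fell (1.72%) and the others rose (4.93%). Ctla4 stood at 19.97, 34.0, 504 and 643 CPM (4.13 ± 0.58, edgeR adjusted p = 0.00407) and Ifng at 19.97, 22.7, 406 and 412 CPM (4.10 ± 0.58, edgeR adjusted p = 0.00407). Pdcd1 was at 0 in both IgG libraries and at 208 and 230 CPM in BP, at least 5.70-fold higher. None of these overlapped between the groups.

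Of 7 inhibitory receptor and exhaustion genes tested 5 rose in the CD4 class (Ctla4, Pdcd1, Tnfrsf9, the transcription factor gene Tox and Rgs16, a regulator of G protein signalling), against 4.93% of all genes. Of these, Pdcd1, Tnfrsf9 and Rgs16 were at 0 in both IgG libraries and so passed the filter on low counts through BP. Tox held 3 UMIs in IgG 1 and 8 in IgG 2 and needed BP as well. In the same class all 5 regulatory T genes tested rose (Ctla4, Ikzf2, Il2ra, Tnfrsf4 and Tnfrsf18), against that same 4.93%. Ctla4, Ikzf2, Il2ra and Tnfrsf4 held at most 6 UMIs in either IgG library and also passed the filter through BP. Both list counts thus partly restate that filter. Tnfrsf4, the gene of OX40, stood at 0, 17.0, 460 and 267 CPM. Ifi27l2a, an interferon-induced gene, stood at 499, 488, 2938 and 4197 CPM (2.78 ± 0.35, edgeR adjusted p = 0.00372), and H2-K1, a class I heavy chain, at 759, 590, 2373 and 1929 CPM (1.61 ± 0.34, edgeR adjusted p = 0.0185).

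Every CD4 call was lost without tumour-RNA barcodes, without Scrublet doublets, after subtraction of free RNA, and with the untreated library pooled with IgG. The tumour list summed to 319, 658, 218 and 182 CPM in this class, and to 0 in both IgG libraries once those barcodes were out. This left 4 CD4 cells in IgG 1 and 9 in IgG 2. Pdcd1 then stood at 0, 0, 245 and 261 CPM, with both BP libraries about as high as before and both IgG libraries still at 0. In IgG 1, 1 UMI then equalled 94.1 CPM, which was the whole Ifng count there. A floor of 3 counts in IgG 1 thus lay above both BP levels of Pdcd1, and no difference from that library is read. Ctla4 stood at 0, 163, 614 and 727 CPM and Ifng at 94.1, 109, 318 and 466 CPM. Ifi27l2a stood at 1129, 2205, 3168 and 4648 CPM and H2-K1 at 1411.5, 1497, 2419 and 2125 CPM. H2-D1, another class I chain that rose, stood at 3105, 2831, 3097 and 3771 CPM in place of 1438, 1197, 3085 and 3384. The IgG levels of Ifng, Ifi27l2a, H2-K1 and H2-D1 were higher in both libraries than with those barcodes in, so the ratios of BP to IgG means were smaller, and for H2-D1 the groups overlapped. Without BP 2 edgeR called 325 genes.

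Foxp3 cells and B cells were too few in the IgG libraries for a fit. In Foxp3 cells Ctla4 stood at 1535, 1298, 1119 and 1684 CPM, from 2 cells in IgG 1 and 1 in IgG 2, the highest levels of this gene in any T cell class here. Over all T cells, edgeR tested 8465 genes and called none, with 1140 at an unadjusted p under 0.05. DESeq2 called 115, and edgeR 164 without BP 2, 10 without BP 1 and 3 without IgG 2. With same-numbered libraries as a block edgeR called 8, and with IgG 1 blocked with BP 2 it called 646, in a fit added after seeing the data. The gene with the smallest adjusted p was Ccl1, at 0, 1.89, 253 and 112 CPM (7.13 ± 0.77, edgeR adjusted p = 0.119), and without tumour-RNA barcodes it passed (edgeR adjusted p = 0.0172). The 2 BP libraries differed in the class that held it. In BP 1, 2903 of the 3588 Ccl1 UMIs of T cells lay in the CD4 class, where BP 2 held 0. In the CD8 class both BP libraries held Ccl1, as given above. Of 12 inhibitory receptor and exhaustion genes tested in T cells 10 lay above in both BP libraries, against 21.7% of all genes. Havcr2 and Pdcd1 held at most 4 UMIs in either IgG library and needed BP to pass the filter on low counts. The count thus partly restates that filter.

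In NK cells edgeR called none of 4428 genes tested, with 144 at an unadjusted p under 0.05, while DESeq2 called 1 and edgeR called 79 without IgG 1, 9 without IgG 2, 2 without BP 1 and 22 without BP 2. Of 11 cytotoxic effector genes tested 1 lay above in both BP libraries, against 16% of all genes, and their median log2 difference was 0.16. Gzma stood at 3724, 2491, 4293 and 3536 CPM and Ccl5, a chemokine of killer cells, at 5479.8, 3986, 4745 and 8001 CPM, with the groups overlapping for both. Klrb1b, an inhibitory NK receptor gene, was the first by p of the named genes higher in BP, at 174, 77.5, 528 and 274 CPM (1.72 ± 0.55, edgeR adjusted p = 0.998). Of 16 interferon-gamma response genes tested 11 lay above in both BP libraries, against the same 16% of all genes. Among them Cxcl10 held 0 UMIs in IgG 2 and needed BP to pass the filter on low counts, so this count partly restates that filter.

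The classes share the same 4 libraries, so their differences are given side by side and no overlap between them is read. Cd274 differed by a log2 value of 2.27 in T cells, 1.03 in NK cells, 3.08 in C1q macrophages, 3.12 in Ly6c2 monocytes and 3.08 in microglia. Irf1 differed by 1.62, 1.31, 4.29, 1.90 and 2.04 in the same order. B2m, the light chain of class I molecules, differed by 0.95, 0.77, 1.59, 0.60 and 1.26. Of these values only Cd274 in Ly6c2 monocytes passed its test.

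Genes of the drug target axis were followed in all leukocytes together, where none of 15 tested passed, as none of all genes tested did. Of these 15, 8 lay above and 2 below in both BP libraries, against 19.4% and 15% of all genes. Vegfa, the gene of the ligand that B20 binds, stood at 8.86, 9.45, 47.8 and 24.1 CPM in IgG 1, IgG 2, BP 1 and BP 2 (1.88 ± 0.35, edgeR adjusted p = 0.359), with 11.5 CPM in the untreated library. Vegfb, a related ligand, stood at 43.8, 54.5, 26.9 and 21.8 CPM (-1.08 ± 0.26, edgeR adjusted p = 0.359). Both BP libraries were above both IgG libraries for Vegfa and below them for Vegfb.

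Flt1, the VEGF receptor 1 gene, stood at 12.0, 27.5, 132 and 46.4 CPM (2.02, edgeR adjusted p = 0.382), and the endothelial list, to which it belongs, summed to 48.7, 66.7, 291 and 115 CPM. Cd274 stood at 24.4, 18.04, 194 and 91.4 CPM (2.67 ± 0.38, edgeR adjusted p = 0.332). Pdcd1lg2, the gene of the second PD-1 ligand, stood at 3.54, 1.79, 163 and 10.9 CPM (5.06 ± 1.28, edgeR adjusted p = 0.374), nearly all of it in BP 1. Pdcd1 overlapped between the groups at 13.7, 33.5, 31.2 and 22.1 CPM, and so did the costimulatory ligands Cd80 and Cd86.

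Lists of other cells were summed over all leukocytes. Tumour genes summed to 165, 340, 608 and 173 CPM and dissociation stress genes to 3636, 4572, 1538 and 4330 CPM, both overlapping between the groups. The endothelial list was higher in both BP libraries, as given above, and was 70.2, 58.3, 408 and 125 CPM without tumour-RNA barcodes. The part of endothelial RNA in the leukocyte results was not tested.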

How the data were processed

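Single-cell libraries of whole NSCG brain tumours, made with 10x V2 chemistry per the labels, were analysed as UMI counts per gene and barcode. The deposited counts are unfiltered matrices. The authors made them with Cell Ranger, whose version is 4 per the file headers and 7.0.1 per the submitters' processing notes, with the mm10 build per those notes. Barcodes were filtered and placed in classes as the report gives, the counts of each class were added up within a library and these sums tested with edgeR 4.0.16 (quasi-likelihood test, TMM, filterByExpr, Benjamini-Hochberg adjustment, threshold 0.05) in R 4.3.3, BP against IgG with 2 libraries each. A class needed at least 10 cells in every library, and the added CD4 and Ly6c2 monocyte fits at least 5. CPM scales a class sum to 1000000 UMIs. Shares have exact Clopper-Pearson 95% intervals, which cover counting error only.

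Named genes passed the test with an average log2 CPM of at least 5, both BP libraries on 1 side of both IgG libraries, and under 10% free RNA in the libraries of the higher group, estimated from barcodes of 10 to 100 UMIs. The 10 with the largest change in each direction were taken in all leukocytes and 5 in other classes. Where fewer than 5 passed, the 5 with the smallest p are given as values that did not pass. To size free RNA, all tumour-list UMIs of a class were taken as free RNA. Tumour-RNA barcodes in a class can raise that share, which came to 124% for CD4 cells and 114% for C1q macrophages in IgG 1. The free RNA shares and the fits with free RNA subtracted are thus rough. List members were named up to 4 per list if they passed, otherwise the 2 with the highest level, and the drug target genes, Ccl1, Cxcl9, Cxcl10, Gzmb and Ifng were followed throughout. Genes outside these rules (Gbp4, Gbp5 and Socs1 in Ly6c2 monocytes, H2-Eb1 and Gbp5 in C1q macrophages, Gzma, Havcr2 and Hsp90aa1 in CD8 cells, Tnfrsf18 in CD4 cells, and Irf1) were picked with their values in view. Some genes that these rules name are not reported here. The members and the gene lists were chosen with earlier results of these data known.

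Alternatives were DESeq2 1.42.0, RLE size factors, no filter, each library left out, a replicate block, at least 2 Ptprc UMIs, thinning to 1000 UMIs, doublets removed with Scrublet (scanpy 1.11.5, 0.8% per 1000 barcodes), free RNA subtracted, other gates and denominators, and UT pooled with IgG. Added after seeing the data were leaving out tumour-RNA barcodes, a denominator without microglia and a crossed block. The test was checked on simulated counts. Main results keep doublets in. The BPI and CD40 libraries entered no test, and the NFpp10 model was not analysed here.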

Additional observations from a re-analysis of the deposited data

Results flagged for a closer look

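In 3 libraries that entered no main test, the share of kept barcodes in a leukocyte class lay, by its exact 95% interval, above the upper bound of both IgG libraries. They are the untreated library (UT), the library given B20, anti-PD-L1 and IPI-145 (BPI) and the library given an agonist of CD40 (CD40), with 1 library each and so no test. The intervals cover counting error only. The IgG libraries differed from each other by more than that for microglia (1.76% and 7.98%), but little for some other classes, such as CD8 cells as given above. With 2 IgG libraries the spread between libraries is poorly known, so none of these shares is shown to lie outside it.

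Ptprc-positive barcodes made up 22.2% of kept barcodes in UT, 26.4% in BPI and 16.8% in CD40, against an upper IgG bound of 11.1%. CD8 cells made up 0.995% in UT, 4.9% in BPI and 0.697% in CD40, against 0.294%. The BPI share was above that of BP 1 (4.73%), while UT and CD40 lay below BP 2 (1.88%). CD4 cells made up 1.78% in UT, against 0.293%. Foxp3 cells made up 0.515% in UT and 0.227% in BPI, against 0.115%.

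NK cells made up 1.42% in UT and 2.79% in BPI, against 0.589%, and B cells 0.569% in UT and 0.553% in CD40, against 0.146%. C1q macrophages made up 3.04% in UT, 0.881% in BPI and 0.553% in CD40, against 0.375%. Ly6c2 monocytes made up 4.94% in UT and 6.28% in BPI, against 0.627%. Microglia made up 10.8% in CD40, against 8.60%.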

How the results depend on the processing

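Only 2 libraries stand for each group, and IgG 1 and IgG 2 hold few cells outside microglia, so single libraries decide many counts. Of 122 share differences under the alternatives 114 kept their direction. The 8 that reversed were NK at -2.57 percentage points without microglia in the denominator, -1.72 without IgG 2 and -0.248 without BP 2, B at -0.934 with mixed-lineage barcodes put in lymphoid classes, -0.474 with UT pooled with IgG, -0.927 without microglia and -0.251 without BP 1, and C1q macrophages at -3.74 after thinning. Leaving out single libraries gave NK differences of -1.72 to 4.87 and B differences of -0.251 to 0.590. The cell-number test called no class under any alternative.

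The numbers of genes called by edgeR in the main fits were 0 in all leukocytes, T cells, NK cells, C1q macrophages and microglia, 81 in CD8, 174 in CD4 and 37 in Ly6c2 monocytes. DESeq2 called 411 in all leukocytes, 115 in T, 49 in CD8, 92 in CD4, 1 in NK, 50 in C1q macrophages, 9 in Ly6c2 monocytes and 51 in microglia. With no filter on low counts edgeR called 1115, 593, 164, 497, 19 and 281 in the first 6 of these classes and 425 in microglia. With at least 2 Ptprc UMIs the counts were 15 in CD4, 24 in C1q macrophages and 1 in Ly6c2 monocytes. Without Scrublet doublets they were 5 in T, 32 in CD8, 0 in CD4, 9 in NK and 5 in Ly6c2 monocytes. Without tumour-RNA barcodes they were 1 in T, 34 in CD8, 0 in CD4 and 2 in NK, with fewer genes tested. Free RNA subtracted, or UT pooled with IgG, each left 0 in CD8, CD4 and Ly6c2 monocytes.

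Leaving out 1 library gave 0 to 629 calls in all leukocytes, 0 to 164 in T, 10 to 122 in CD8, 147 to 325 in CD4, 2 to 79 in NK, 39 to 206 in C1q macrophages, 8 to 110 in Ly6c2 monocytes and 0 to 951 in microglia. The lone library of an arm was then assumed to vary like the other group.

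Deviations of same-numbered libraries from their group means correlated at -0.24 over genes in all leukocytes and -0.25 in T cells. In the other classes fitted the correlation lay between -0.10 (NK) and 0.016 (CD8). With 2 libraries per group the crossed pairing has the same correlation with its sign turned. These values therefore do not settle whether the replicate numbers pair the libraries. With the replicate block edgeR called 8 genes in T, 7 in CD8 and 10 in microglia, and a crossed pairing (IgG 1 with BP 2, which carry consecutive library numbers), added after seeing the data, gave 646 in T and 6 in NK. The cause was not tested.

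For the genes that the naming rules took or the text names, less those not reported here, of 1758 log2 differences under the alternatives (131 gene and class pairs) 1244 kept their direction and their side of the threshold, 281 lost the call, 205 gained one and 28 reversed. With UT pooled with IgG the reversed values were -0.36 for Pdcd1 in T, -0.42 for Pdcd1 in CD8, -0.80 for Ly6i in C1q macrophages, -0.88 for Gm15056, -0.41 for Ly6a and -0.71 for B2m in Ly6c2 monocytes, -0.70 for Acod1, -0.95 for Cxcl9 and -0.22 for H2-D1 in microglia, -0.16 for Ccl4, -0.085 for Ly6a and -0.017 for H2-D1 in CD4, -0.058 for Cd74 in all leukocytes, and -0.81 for Gzmb, -0.29 for Gzma, -0.26 for Ccl5 and -0.48 for H2-D1 in NK. With free RNA subtracted Isg15 in Ly6c2 monocytes turned to 0.068 and H2-D1 in NK to -0.021, and without tumour-RNA barcodes Gzma in NK turned to -0.060. Leaving out 1 library moved Gpnmb from -4.07 to 9.31 (the latter against 0 UMIs in IgG 2, with both BP levels under its floor, so no direction is read) and Isg15 from -1.31 to 0.66 in Ly6c2 monocytes, Xcl1 from -3.52 to 1.53 and Isg15 from -1.17 to 0.27 in CD8, and Gzma from -0.013 to 0.69 and Ccl5 from -0.074 to 0.85 in NK. The replicate block reversed none of them and ended 19 calls. DESeq2 gave no adjusted p for 18 values, which are left out.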
